A study of Mus musculus with 6 samples.

Results

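The expression of 10 genes that control Rac signalling and the actin skeleton was examined in primary mouse embryonic fibroblasts (pMEFs) labelled wild type (HAT1 WT) or knockout (HAT1 KO) for the histone acetyltransferase HAT1. The 10 were taken by symbol from the 17512 genes of the deposited table. Of these, 7 are grouped here as leukocyte-restricted, being known mainly from blood cells (Dock2, Dock8, Nckap1l, Prex1, Was, Coro1a and Rac2) and 3 are broadly expressed counterparts (Rac1, Nckap1 and Dock1). They were chosen with the HAT1 KO to HAT1 WT differences of these libraries already known, so those differences are given as a description, without p-values, and counts of calls among the 10 are no independent evidence. The samples were 6 lines in the C57bl6 background, each sequenced as 1 library: lines 36, 47 and 78 were HAT1 WT, and lines 33, 41 and 72 were HAT1 KO. HAT1 acetylates newly made histone H4 before its assembly into chromatin. All lines were grown from mid-gestation embryos stripped of internal organs, in DMEM with FBS, and the methods name no step that sorts the cells by type. The labels do not say whether the lines came from separate embryos, so p-values measure only the spread between lines as labelled.

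Rac proteins are small GTPases that switch on when an exchange factor loads them with GTP. Active Rac turns on the WAVE complex, and active Cdc42 turns on WASP proteins, and both then drive the Arp2/3 complex to nucleate branched actin filaments. Leukocytes use their own versions of several of these parts to migrate, engulf particles and form contacts with other cells, while most other cells, fibroblasts among them, rely on the broadly expressed versions.

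To show where the genes start, stretches of 150 bases that end 40 bases before the annotated transcription start were read from RefSeq promoter windows on GRCm38.p6. The windows ran from 250 bases before the start to 50 after it, and 6 of the 10 genes had an entry. The stretches below were chosen because they differ in CpG content, and every CpG is in capitals. Each is printed 5′ to 3′ on the strand of the gene. Dock2 (chr11:34783946-34784095, minus strand) and Was (chrX:8090532-8090681, minus strand) are leukocyte-restricted genes with few CpGs, Dock8 (chr19:24999339-24999488, plus strand) is a leukocyte-restricted gene with many, and Dock1 (chr7:134670497-134670646, plus strand) is broadly expressed.
Dock2: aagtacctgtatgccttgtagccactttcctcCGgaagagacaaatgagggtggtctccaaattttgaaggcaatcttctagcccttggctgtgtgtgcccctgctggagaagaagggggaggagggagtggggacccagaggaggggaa
Was: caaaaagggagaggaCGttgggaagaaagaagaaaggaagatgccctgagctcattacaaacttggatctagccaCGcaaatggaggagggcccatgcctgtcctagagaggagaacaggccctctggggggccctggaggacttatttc
Dock8: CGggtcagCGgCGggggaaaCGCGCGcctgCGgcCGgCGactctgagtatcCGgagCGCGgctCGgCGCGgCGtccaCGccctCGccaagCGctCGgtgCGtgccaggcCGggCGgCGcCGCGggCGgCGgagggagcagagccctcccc
Dock1: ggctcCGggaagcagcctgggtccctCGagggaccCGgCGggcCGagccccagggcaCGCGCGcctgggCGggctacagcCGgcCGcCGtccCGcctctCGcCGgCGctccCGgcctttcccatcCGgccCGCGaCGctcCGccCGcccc
The stretch of Dock2 held 1 CpG and that of Was held 2, against 28 for Dock8 and 23 for Dock1. Over the whole window the CpG count was 5 for Dock2, 5 for Was, 52 for Dock8, 34 for Dock1 and 24 for Prex1, and 19 and 10 in the windows of the 2 starts of Coro1a. The median over 32851 windows was 7. The leukocyte-restricted genes thus did not share a promoter of one CpG class. The purine-rich motif GAGGAA, which can be part of a binding site for ETS-family factors, was searched on both strands. It lay in the windows of Dock2, Was and Dock1, and not in those of Dock8, Prex1 and Coro1a, while 28.3% of all windows held it. TATAAA was in none of the 7 windows of these genes and in 13.6% of all windows.

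The targeted gene and the cell identity were checked first. Hat1 read 17.4, 23.0 and 20.1 CPM (read counts relative to the library size, scaled by TMM) in WT lines 36, 47 and 78, and 10.2, 10.0 and 10.3 CPM in KO lines 33, 41 and 72. Its log2 fold change was -0.99 ± 0.12 (SE, n = 3 lines each, edgeR adjusted p = 0.0376), and the KO mean was 50.4% of the WT mean. The difference had this direction under every alternative, but the adjusted p-value was 0.0587 to 0.230 with any 1 line left out and 0.529 with lane as a term. The counts are for the whole gene, so this level does not check the deletion itself. All 9 fibroblast markers were present, led by the collagen gene Col1a1 at 34804 ± 932 CPM in HAT1 WT and 35738 ± 9687 in HAT1 KO (SD, n = 3 each), and none of the 9 passed the adjusted test in edgeR (1 had an unadjusted p-value under 0.05). All 13 macrophage and pan-leukocyte markers were detected too, with a summed level of 5227 to 5694 CPM in HAT1 WT and 2505 to 3116 CPM in HAT1 KO. Total counts were 67720628 to 98786746 per library. KO line 72 had the lowest summed fibroblast marker level, 46348 CPM against 60871 to 78361 CPM in the other 5 lines. The collagen genes Col1a1, Col1a2 and Col3a1 made up most of that sum. Vim was instead highest in KO line 72, at 4494 CPM against 2228 to 3099 CPM in the other 5 lines. Pdgfrb and Lum lay within the range of the other lines there, and the remaining markers were lowest in that line.

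All 7 leukocyte-restricted genes were lower in HAT1 KO, and the 3 broadly expressed genes stayed close to their WT level. The summed level of the 7 was 606, 618 and 629 CPM in WT lines 36, 47 and 78, and 394, 375 and 370 CPM in KO lines 33, 41 and 72, so that the KO mean was 61.4% of the WT mean. The summed level of Rac1, Nckap1 and Dock1 was 763, 761 and 757 CPM in HAT1 WT and 770, 800 and 740 CPM in HAT1 KO, and the KO mean was 101% of the WT mean. The lines of the genotypes separated for the first sum and overlapped for the second. In bulk RNA, fewer cells of a type and less RNA per cell cannot be told apart. The median log2 fold change was -0.72 over the 7 genes and 0.052 over the 3, beside 0.0085 over all 14773 tested genes. With an adjusted p-value under 0.05 in edgeR, 3 of the 7 were called lower, and 0.528% of all tested genes were. By the 1.5-fold rule, which asks for that fold together with an unadjusted p-value under 0.05, 4 of the 7 were called lower, against 4.62% of all tested genes. The highest KO line was below the lowest WT line for 6 of the 7, and for 12.4% of all tested genes. Since the genes were chosen on this contrast, these counts only describe the choice.

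**Figure D1:**
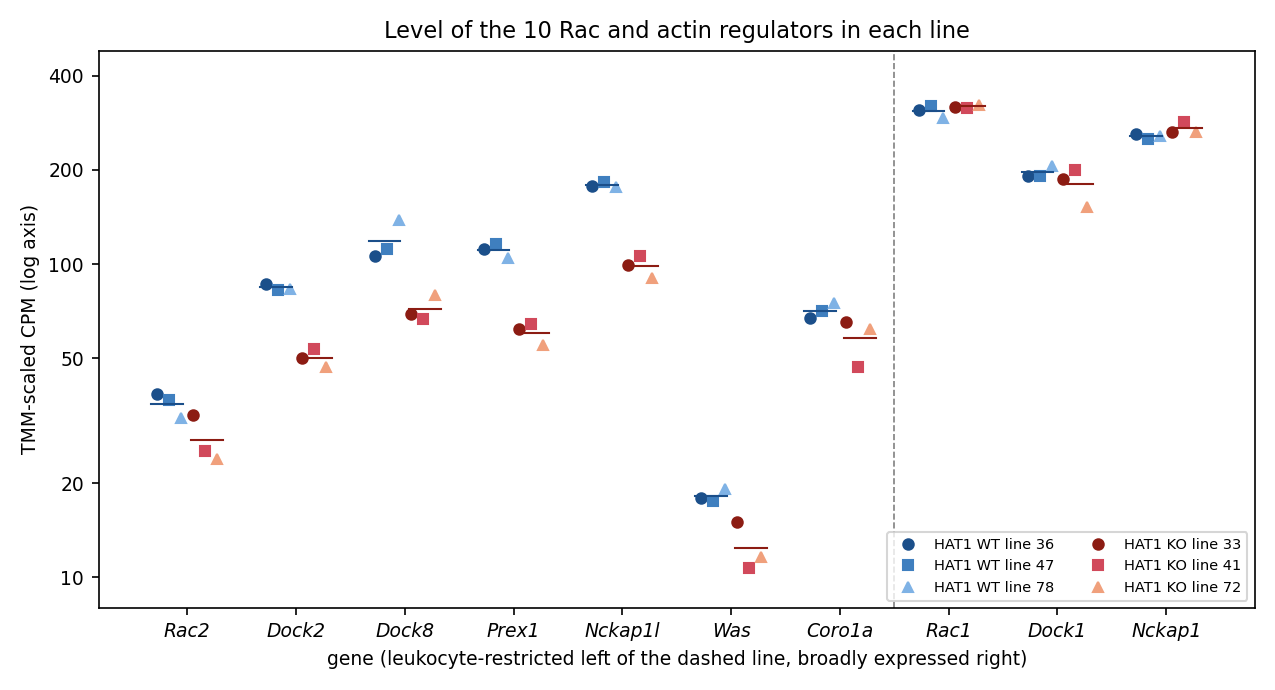
Level of the 10 genes in each line, in TMM-scaled CPM on a log axis, with 1 point per line (3 HAT1 WT and 3 HAT1 KO lines per gene) and a horizontal line at each mean. The KO points lie below the WT points for Dock2, Dock8, Nckap1l, Prex1, Was and Coro1a, overlap them for Rac2, Rac1 and Dock1, and lie above them for Nckap1 (265 to 284 against 251 to 260 CPM).

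The Rac GTPases themselves were measured first. Rac2 (ENSMUSG00000033220, chr15:78559167-78572783, minus strand, GRCm38 as for all genes here) is the Rac of blood cells and is needed for the oxidative burst of phagocytes. It read 38.5, 36.8 and 32.3 CPM in WT lines 36, 47 and 78, and 32.9, 25.3 and 23.9 CPM in KO lines 33, 41 and 72. KO line 33 lay within the WT range and the other KO lines below it, and 8 of the 9 pairs of a KO and a WT line were lower in KO. The means were 35.8 ± 3.18 and 27.4 ± 4.86 CPM (SD, n = 3 each), with a log2 fold change of -0.39 ± 0.14 (SE). Rac1 (ENSMUSG00000001847, chr5:143503634-143528036, minus strand) is the Rac of nearly all cells. It read 311, 319 and 293 CPM in HAT1 WT and 318, 316 and 323 CPM in HAT1 KO. The ranges overlapped, and the log2 fold change was 0.05 ± 0.06 (SE). In Rac1, 51.4% of the exon bases are shared with Daglb, a lipase gene on the opposite strand, and the use of strand in the counting was not given in the sources used here. Daglb read 36.5 to 40.8 CPM in HAT1 WT and 26.6 to 29.9 CPM in HAT1 KO.

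Among the exchange factors, the leukocyte-restricted ones were lower and Dock1 was not separated. Dock2 (ENSMUSG00000020143, chr11:34226815-34783892, minus strand) activates Rac downstream of chemokine receptors. It read 86.7, 82.8 and 83.3 CPM in WT lines 36, 47 and 78, and 50.02, 53.8 and 47.03 CPM in KO lines 33, 41 and 72. The lines were tight within each genotype and did not overlap, with means of 84.3 ± 2.15 and 50.3 ± 3.40 CPM and a log2 fold change of -0.74 ± 0.07 (SE). Prex1 (ENSMUSG00000039621, chr2:166566342-166713832, minus strand), a Rac exchange factor switched on by PIP3 and G protein subunits, read 112, 116 and 105 CPM in HAT1 WT and 61.9, 64.5 and 55.1 CPM in HAT1 KO. Its KO mean was 54.6% of the WT mean, the lowest share of the 10 genes, and its log2 fold change was -0.87 ± 0.08 (SE). Every KO line was below every WT line. Dock8 (ENSMUSG00000052085, chr19:24999534-25202432, plus strand) activates Cdc42, and its loss in people causes an immunodeficiency. It read 106, 111 and 138 CPM in HAT1 WT and 69.5, 66.9 and 79.7 CPM in HAT1 KO. WT line 78 stood above the other WT lines, and without it the log2 fold change of Dock8 was -0.59 in place of -0.72 ± 0.12 (SE). Dock8 still kept its genotypes apart in all 9 pairs of lines. Dock1 (ENSMUSG00000058325, chr7:134670654-135173639, plus strand) works with ELMO proteins to activate Rac during the uptake of dying cells. It read 191, 192 and 206 CPM in HAT1 WT and 187, 200 and 152 CPM in HAT1 KO, where line 72 was the low one. Its log2 fold change was -0.13 ± 0.11 (SE), and -0.0084 without KO line 72.

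In the WAVE complex, the leukocyte subunit was lower in HAT1 KO and its broadly expressed counterpart was not. Nckap1l (ENSMUSG00000022488, chr15:103453794-103498810, plus strand) encodes HEM1, the version of this scaffold subunit in blood cells. It read 178, 183 and 177 CPM in WT lines 36, 47 and 78, and 99.4, 107 and 90.4 CPM in KO lines 33, 41 and 72. No lines overlapped, and the log2 fold change was -0.86 ± 0.08 (SE) with a KO mean at 55.1% of the WT mean. Nckap1 (ENSMUSG00000027002, chr2:80500512-80581380, minus strand) encodes the version used elsewhere and read 260, 251 and 257 CPM in HAT1 WT and 265, 284 and 265 CPM in HAT1 KO. Here the KO lines lay just above the WT lines, as for 9.59% of all tested genes, and the log2 fold change was 0.08 ± 0.06 (SE). The adjusted edgeR test called 0% of the tested genes higher, while 869 passed an unadjusted p-value of 0.05 in that direction, and DESeq2 called 212 higher and voom 4. The 1.5-fold rule called 1.5% of all tested genes higher and none of the 10.

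Was and Coro1a act on actin more directly, and their differences were smaller. Was (ENSMUSG00000031165, chrX:8081453-8090498, minus strand) encodes WASP, which passes the Cdc42 signal to the Arp2/3 complex. It read 17.9, 17.6 and 19.2 CPM in WT lines 36, 47 and 78, and 15.0, 10.7 and 11.6 CPM in KO lines 33, 41 and 72. It had the fewest reads of the 10 genes, from 723 to 1902 counts per line. The lines did not overlap, KO line 33 was the nearest to the WT lines, and the log2 fold change was -0.55 ± 0.14 (SE). Was lies on the X chromosome, and the lines also differed in sex-linked RNA. Y-linked genes summed to 13788, 12841 and 231 counts in WT lines 36, 47 and 78 and to 4 to 8 counts in the KO lines, and Xist, the RNA of the inactive X, read 94, 1179 and 29520 counts in those WT lines and 11233 to 13722 in the KO lines. WT line 78, the WT line nearest to the KO lines in this respect, held the highest Was level of all lines, but it is 1 library. The imbalance holds for the comparison of all 10 genes, and the part of sex in their differences was not tested. Coro1a (ENSMUSG00000030707, chr7:126699773-126707787, minus strand) encodes coronin 1A, an actin-binding protein that T cells need to survive. It read 67.1, 70.8 and 75.2 CPM in HAT1 WT and 65.4, 47.1 and 62.0 CPM in HAT1 KO. KO line 33 was only just below the lowest WT line. The log2 fold change of Coro1a was -0.29 ± 0.13 (SE), and -0.15 without KO line 41.

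The 7 leukocyte-restricted genes thus ran from 54.6% of the WT level for Prex1 to 81.9% for Coro1a. With the 1.5-fold rule (0.58 on the log2 scale), Dock8 at -0.72 was the last gene inside and Was at -0.55 the first outside. Was, Coro1a and Rac2 also varied most among KO lines, with coefficients of variation of 18.2%, 16.7% and 17.8%, against 6.75% for Dock2, 8.03% for Prex1 and 8.22% for Nckap1l. For all of Was, Coro1a and Rac2, line 33 was the highest KO line. Dock2, Prex1 and Nckap1l instead had line 41 as the highest KO line and line 72 as the lowest.

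The lines had been sequenced in 3 lanes, and the differences were read within a lane where both genotypes were present. WT line 47 shared lane 6 with KO lines 33 and 72, WT line 78 shared lane 7 with KO line 41, and WT line 36 was the single library of lane 8. The log2 ratio of KO to WT in lanes 6 and 7 was -0.77 and -0.63 for Dock2, -0.99 and -0.70 for Prex1, and -0.95 and -0.73 for Nckap1l. It was -0.58 and -1.05 for Dock8, -0.40 and -0.85 for Was, -0.15 and -0.68 for Coro1a, and -0.37 and -0.35 for Rac2. All 7 were thus lower in KO within both lanes. Rac1 gave 0.0079 and 0.11, Nckap1 0.08 and 0.14, and Dock1 -0.18 and -0.04.

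Levels can be compared between genes only per length, so CPM was divided by the summed exon length of each gene in kilobases (RPKM). In HAT1 WT the order was Rac1 (68.4 ± 2.90 RPKM), Nckap1 (51.6 ± 0.980), Nckap1l (30.2 ± 0.523), Coro1a (25.5 ± 1.46), Dock1 (21.0 ± 0.877), Dock8 (11.8 ± 1.71), Rac2 (11.5 ± 1.03), Prex1 (10.8 ± 0.567), Was (7.66 ± 0.364) and Dock2 (7.37 ± 0.188) (SD, n = 3). The line ranges of Dock8 and Rac2, of Rac2 and Prex1, and of Was and Dock2 overlapped, and the other neighbours did not. With the length of the longest transcript instead, Coro1a (40.7 RPKM) stood above Nckap1l (35.9 RPKM), and Dock2 stood at 13.1 RPKM, above Rac2 and Was at 11.8 and 8.63 RPKM, so this part of the order depended on the length used.

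Each leukocyte-restricted gene was then set against its relatives within the same library, as a share of their summed RPKM. Nckap1l made up 36.9% ± 0.819 of Nckap1l plus Nckap1 in HAT1 WT and 23.3% ± 0.981 in HAT1 KO (SD, n = 3 each). Was made up 45.8% ± 0.551 of Was plus Wasl in HAT1 WT and 37.4% ± 3.66 in HAT1 KO. For both genes the KO lines did not reach the WT range, and in each case the counterpart held the larger share in every line. Rac2 was a minor Rac, at 13.6% ± 0.537 of the 3 Rac genes in HAT1 WT and 10.5% ± 1.84 in HAT1 KO, while Rac1 made up 80.7% and 84.7%. Among Dock1 to Dock10, Dock2 took 10.4% ± 0.632 and Dock8 16.5% ± 1.59 in HAT1 WT, and 7.34% ± 0.519 and 11.9% ± 1.04 in HAT1 KO. Dock1 held 29.6% ± 0.236 in HAT1 WT and 32.2% ± 4.70 in HAT1 KO, and in KO line 72 another gene of the set, Dock5, took 24.4%, against 12.7% to 15.2% in the other 5 lines. Coro1a took 24.3% ± 2.82 of the Coro1 genes in HAT1 WT and 19.8% ± 2.23 in HAT1 KO, with overlapping lines. Prex1 was nearly the whole of Prex1 plus Prex2 in both genotypes, at 94.6% ± 3.05 and 89.6% ± 1.83.

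**Figure D2:**
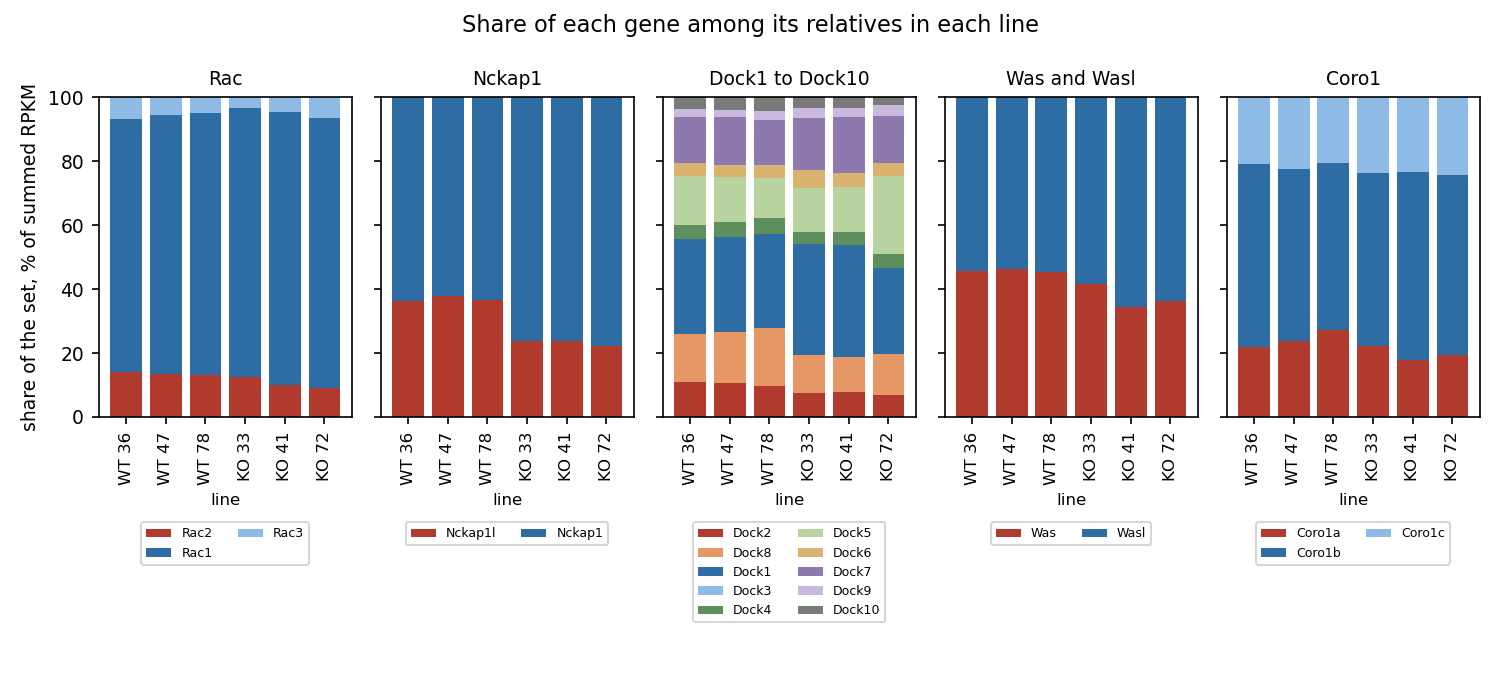
Stacked bars give the share of each gene in the summed RPKM of its set (percent, 0 to 100) for each of the 6 lines, in 5 sets. The leukocyte-restricted genes are at the bottom in red and orange, and Nckap1l takes 36.4% to 37.9% in HAT1 WT lines and 22.2% to 23.9% in HAT1 KO lines.

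To place the 10 genes in their pathway, 22 other leukocyte regulators of small GTPases and actin were examined, from a list drawn up with earlier results of these data known. Of the 22, 18 were lower and 4 higher in HAT1 KO, with a median log2 fold change of -0.62. The adjusted edgeR test called 5 lower. These were Vav1, a Rac exchange factor of immune receptors (54.2 ± 0.569 against 28.3 ± 2.56 CPM, log2 fold change -0.93 ± 0.08, adjusted p = 0.0320), Fyb, an adaptor that links receptors to integrins (-1.08 ± 0.13, adjusted p = 0.0357), the GTPase-activating Arhgap45 (-0.84 ± 0.09, adjusted p = 0.0353), the myosin Myo1f (-0.69 ± 0.09, adjusted p = 0.0479) and the actin bundler Lcp1 (-0.62 ± 0.07, adjusted p = 0.0357). With the 1.5-fold rule 9 were lower and 0 higher, the added ones being Dock10 (-0.63), Fgd2 (-0.98), Arhgap9 (-0.63) and Arhgap25 (-0.87). The count of 5 became 0 without any 1 of WT lines 36, 47 and 78 or KO lines 33 and 41, and 2 without KO line 72, while the 1.5-fold count stayed between 7 and 11. The highest of the list per length, Arhgdib, which holds small GTPases inactive, read 97.96 to 110 CPM in HAT1 WT, 87.5 and 86.2 CPM in KO lines 33 and 41, and 260 CPM in KO line 72. Its log2 fold change was 0.48 ± 0.44 (SE, edgeR adjusted p = 0.667), and -0.24 ± 0.07 without that line (adjusted p = 0.170).

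The 47 genes of the pathway grouped here as broadly expressed were examined in 4 lists of the same origin. Their median log2 fold change was -0.07, with a range from -0.82 to 0.17. The relatives of the 10 genes counted 8 lower and 6 higher of 14, with a median log2 fold change of -0.08. Their highest members per length were the coronins Coro1b (0.04) and Coro1c (0.16) and the exchange factor Dock5 (0.08). All 8 other subunits of the WAVE complex were below 0, but with a median of only -0.12. Brk1, its smallest subunit, read 73.6 to 75.7 CPM over all 6 lines, with a log2 fold change of -0.0065, and Wasf2, the subunit that binds Arp2/3, gave -0.07, while Abi1, a scaffold subunit, gave -0.17 (adjusted p = 0.323). In the Arp2/3 complex 5 of 9 genes were lower and 4 higher, with a median of -0.05, and Arpc2, Actr3 and Actr2 gave -0.05, 0.03 and -0.05. Of 16 broadly expressed GTPase switches and partners 12 were lower and 4 higher, with a median of -0.07, and Arhgdia, Cdc42 and the actin-binding Cttn gave 0.11, -0.02 and 0.08. Without KO line 72 the direction turned for Dock5 (-0.25 ± 0.07, edgeR adjusted p = 0.170), Cttn (-0.06), Cdc42 (0.01) and Coro1b (-0.02), and that of Coro1b also turned without WT line 78 and that of Brk1 without WT line 36 or KO line 41. With all 6 lines, 33 of the 47 were lower and 14 higher, while 48.5% of all tested genes were lower. At an unadjusted edgeR p-value under 0.05, 7 of the 47 were lower and 0 higher. Over all 14773 tested genes, 1295 were lower and 869 higher at that threshold. The adjusted edgeR test called 0 of the 47, whereas DESeq2 called 5 lower (Dock4, Rhog, Elmo1, Vav3 and Wipf1) and voom 2 (Elmo1 and Vav3). The 1.5-fold rule called 2, Elmo1, a partner of Dock1 and Dock2 (-0.64 ± 0.09, edgeR adjusted p = 0.0565), and Vav3, a relative of Vav1 (-0.82 ± 0.16, edgeR adjusted p = 0.106).

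**Figure D3:**
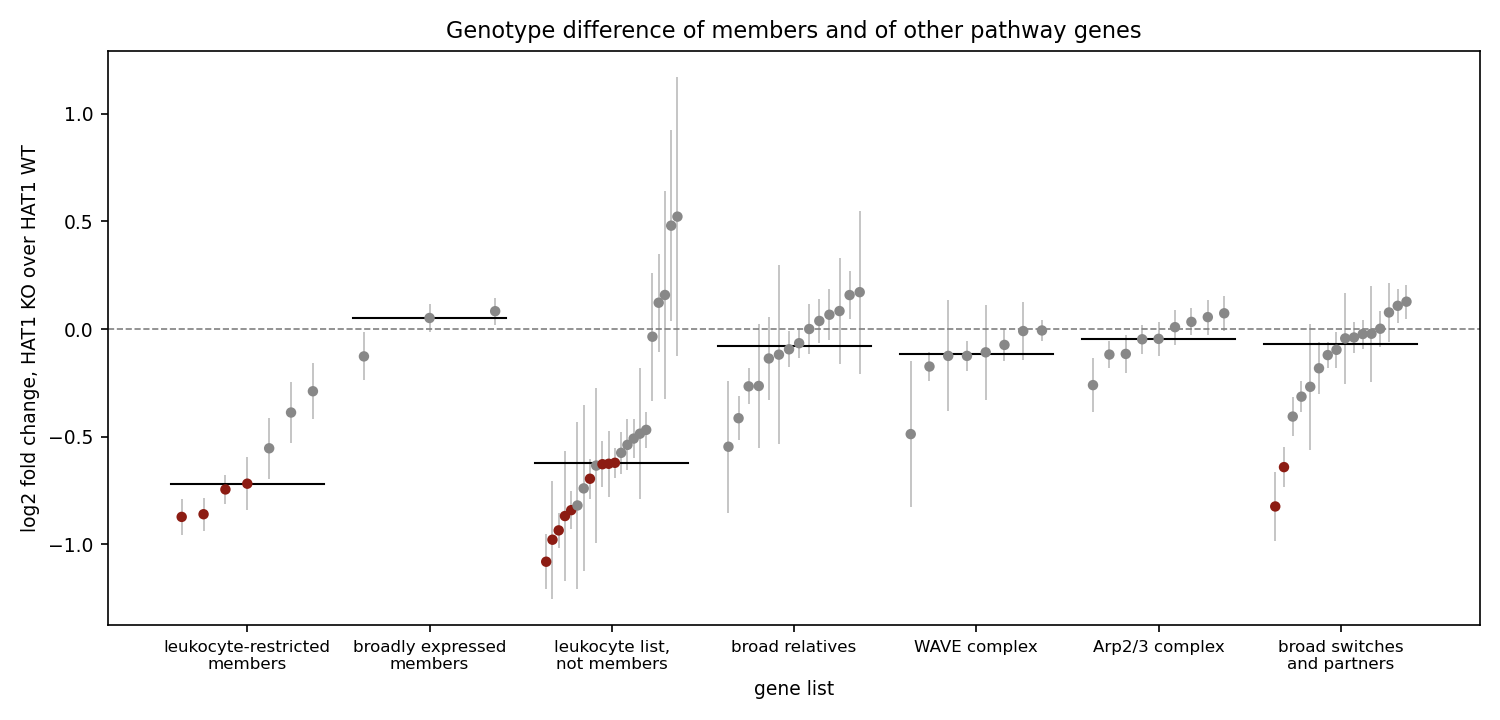
Log2 fold change of HAT1 KO over HAT1 WT for each of the 10 genes and each gene of the 5 pathway lists, with bars of 1 SE, a line at the median of each list, and genes called by the 1.5-fold rule in red. The medians are -0.72 for the 7 leukocyte-restricted genes and -0.62 for the 22 other leukocyte regulators, and lie between -0.12 and 0.05 for the broadly expressed lists.

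Markers of leukocytes moved with the 7 genes. The log2 fold changes of all 13 macrophage and pan-leukocyte markers were below 0, from -1.21 to -0.46, with a median of -0.75, and 8 passed the adjusted edgeR test. Every KO line was below every WT line for 12 of the 13, and for 12.4% of all tested genes, while Cx3cr1 overlapped. Over all tested genes, the adjusted test called 0 lower without WT line 36, without WT line 47 or without KO line 33. Ptprc, the CD45 gene of all leukocytes, read 107 ± 7.83 CPM in HAT1 WT and 66.6 ± 3.36 CPM in HAT1 KO (log2 fold change -0.68 ± 0.08, adjusted p = 0.0357), and Csf1r, the growth factor receptor of macrophages, read 593 ± 22.4 and 354 ± 22.1 CPM (-0.74 ± 0.08, adjusted p = 0.0353). Of 13 markers of lymphoid cells, mast cells, granulocytes and megakaryocytes, 5 were in the table and 2 passed the filter on low counts, and the summed level was 10.4 to 13.7 CPM in HAT1 WT and 4.98 to 5.94 CPM in HAT1 KO. Most of that sum was Pf4, a platelet factor gene, at 9.78 ± 1.83 and 3.12 ± 0.644 CPM (log2 fold change -1.65 ± 0.22, edgeR adjusted p = 0.0479), while the integrin gene Itga2b read 2.55 and 2.15 CPM, and the highest value of the 3 others in any line was 0.311 CPM, for S100a8. Cd3e and Mpo were not analysed here. Of 7 endothelial markers 5 were in the table, with a sum of 11.4 to 12.6 CPM in HAT1 WT and 8.92 to 12.4 CPM in HAT1 KO. Kdr made up most of that sum, at 9.48 and 8.48 CPM on average, and overlapped between genotypes, as did Tek. Of the 4 tested, 2 were lower by the 1.5-fold rule, against 4.62% of all tested genes. These were Pecam1 (0.592 and 0.189 CPM on average, log2 fold change -1.63 ± 0.41) and Cdh5 (0.603 and 0.333 CPM, -0.85 ± 0.28). Both had low levels, their lines did not overlap, and neither passed the adjusted edgeR test. The erythroid list had 1 of 4 markers, Alas2, at 0.40 to 1.12 CPM over all lines.

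Each of the 10 genes was expressed as a percentage of the summed CPM of the 13 macrophage and pan-leukocyte markers in the same line. The KO mean of that sum was 53.1% of the WT mean. Nckap1l stood at 3.32% of the marker sum in HAT1 WT and 3.45% in HAT1 KO, and Prex1 at 2.05% and 2.12%, with overlapping lines for both. Dock8 stood at 2.20% and 2.55% and Was at 0.338% and 0.436%, again with overlapping lines. Dock2 (1.56% and 1.76%), Coro1a (1.32% and 2.06%) and Rac2 (0.663% and 0.957%) were higher relative to the markers in every KO line than in any WT line. The broadly expressed genes stood at 5.70% and 11.2% for Rac1, 4.75% and 9.52% for Nckap1 and 3.64% and 6.26% for Dock1, also with every KO line above the WT lines. Lyz2, a lysozyme gene, made up 49.7% to 55.0% of the marker sum, and when it was left out, a choice made after seeing the data, the KO ratio was 96.9% of the WT ratio for Nckap1l, 96.1% for Prex1, 105% for Dock2, 108% for Dock8, 120% for Was, 145% for Coro1a and 134% for Rac2, and of these only Rac2 kept its lines apart. The part of leukocyte number in the lower level of the 7 genes was not tested.

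**Figure D4:**
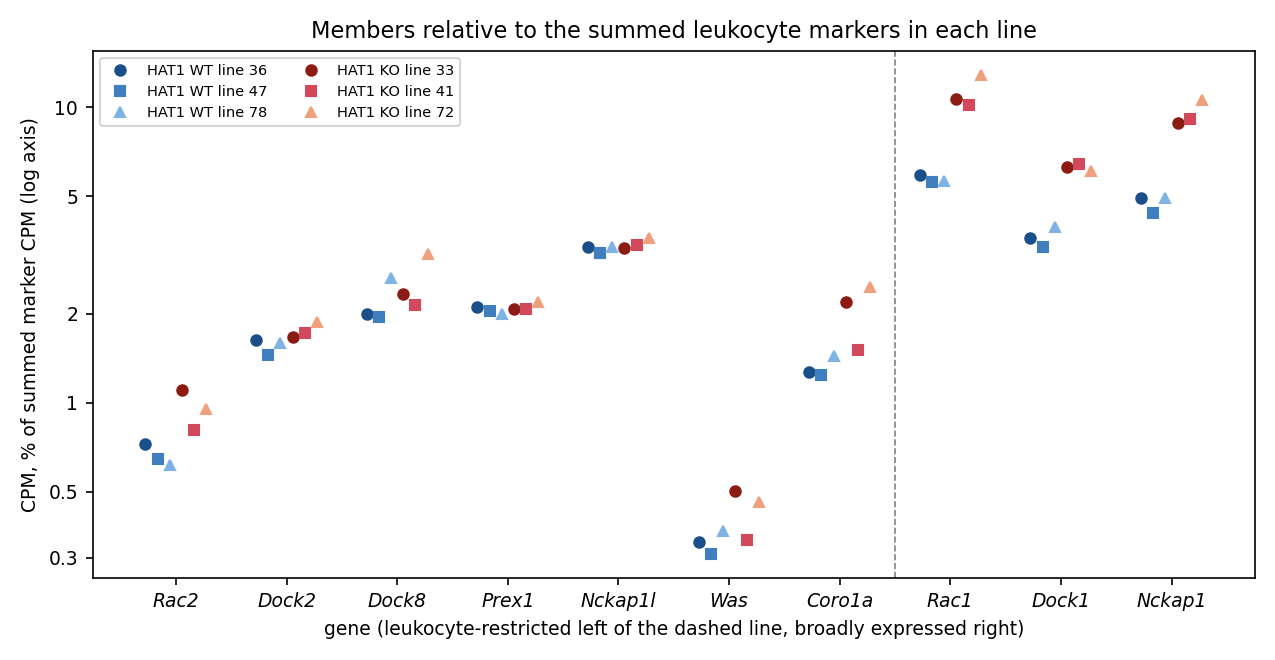
CPM of each of the 10 genes as a percentage of the summed CPM of 13 macrophage and pan-leukocyte markers in the same line, on a log axis, with 1 point per line. The HAT1 KO points overlap the HAT1 WT points for Dock8, Nckap1l, Prex1 and Was, and lie above them for Dock2, Coro1a, Rac2 and the 3 broadly expressed genes.

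Outside the 10, the genes most like the 7 were those whose log2 CPM over the 6 lines, centred on its own mean, was nearest to the median centred profile of the 7. Likeness was the root mean square difference over the 6 lines, and its median over 12342 candidate genes was 0.386. The 7 were chosen with their lower level in HAT1 KO known, so genes near this profile are lower in HAT1 KO by construction. The 5 nearest were Psd4 (0.0506), an exchange factor of ARF6, Rin2 (0.0537), an exchange factor of RAB5, Naip2 (0.0542), a sensor of bacterial proteins in macrophages, Arap3 (0.0573), a GTPase-activating protein of ARF6, and Nfatc2 (0.0578), a transcription factor of T cells. Rin2 had the highest CPM of them, without regard to gene length, at 88.3 ± 3.44 CPM in HAT1 WT and 55.3 ± 1.46 CPM in HAT1 KO. Of the 7 genes themselves, Dock2 was the nearest to the median profile (0.0700) and Coro1a the farthest (0.251), while Rac1, Nckap1 and Dock1 stood at 0.372, 0.383 and 0.295. The 7 set the profile, so these distances follow from the choice of genes and are no independent evidence.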

How the data were processed

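RNA of 6 pMEF lines (3 HAT1 WT, 3 HAT1 KO) was measured with libraries of the TruSeq RNA Sample Prep Kit v2. The authors deposited raw read counts per gene, with no normalization. The table also held their own comparison of the genotypes (fold change, mean level, F, p-value and q-value), which was not used. The submitters' processing notes name edgeR and mm10, and the aligner, counter and use of strand were not given in the sources used here. Genotypes came from the labels, and every column of counts had a sample. The 17512 identifiers all matched GENCODE M21 on GRCm38, and 24 symbols turned into dates were restored from them.

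The deposited counts were then fitted in R 4.3.3 with edgeR 4.0.16: filterByExpr defaults (14773 genes), TMM scaling, a quasi-likelihood test of genotype alone, two-sided, and Benjamini-Hochberg adjustment over all tested genes. Calls used an adjusted p-value under 0.05, or a 1.5-fold difference whose unadjusted p-value was under 0.05. The SE is approximate, being the log2 fold change over the root of its F value. RPKM was CPM divided by the length in kilobases of the union of exons. With 3 lines against 3, the smallest p-value of an exact permutation test is 0.1. The fits were tested on simulated data. The share of counting error in the spread between lines was not worked out for the 10 genes.

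The genes, the lists and the marker lists were chosen with earlier results of these data known. Named genes were Hat1, the 10 genes, called genes of the pathway lists or else the 3 highest of a list by RPKM, defining markers and the 5 genes of most similar profile. A defining marker is not reported here. Genes named only for a call by another tool, Daglb, Lyz2, Alas2, Pf4, Itga2b, S100a8 and the sex-linked genes were named after their values were seen. The same holds for Cdh5, Kdr, Tek, Cx3cr1, Col1a2, Col3a1, Vim, Pdgfrb and Lum. The alternatives were DESeq2 size factors, library size alone, the DESeq2 1.42.0 Wald test, voom with sample quality weights in limma 3.58.1, no filter, a mean of at least 50 counts, halved counts, lane as a term, each line left out in turn and the longest transcript as the length.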

Additional observations from a re-analysis of the deposited data

How the results depend on the processing

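The direction of the differences of the 10 genes held under all alternatives tried. Their sizes moved by less than the SD between lines. On the log2 scale this SD was widest for Rac2 (0.197), Coro1a (0.189), Was (0.186), Dock8 (0.172) and Dock1 (0.151). The difference of Coro1a was -0.29, and -0.15 without KO line 41, and that of Dock1 was -0.13, and -0.0084 without KO line 72. The median of the broadly expressed genes stayed between 0.02 and 0.08. The median of the 7 leukocyte-restricted genes ranged from -0.75 to -0.59 when a line was left out, the latter without WT line 78. Counts of calls depended on the tool and on single lines. Genes lower by the adjusted test numbered 78 in edgeR, 643 with DESeq2, 263 with voom, 46 with no filter, 2 with lane as a term and 0 to 71 with a line left out. Genes higher numbered 0 in edgeR, 212 with DESeq2, 4 with voom, 1 each with library size alone, a mean of at least 50 counts and halved counts, and 0 to 2 with a line left out. By the 1.5-fold rule 221 genes were higher, 60 with lane as a term and 111 to 350 with a line left out. Of the 22 other leukocyte regulators, 5 were lower by the adjusted test, 12 with DESeq2, 9 with voom, 0 with lane as a term and 0 to 2 with a line left out. Of the 47 broadly expressed genes, 0 were called, 5 with DESeq2 and 2 with voom, and the 2 past the 1.5-fold rule became 1 to 3 with a line left out. The cause was not tested. With the longest transcript as the length, the WT shares became 12.9% for Rac2, 39.2% for Nckap1l, 11.3% for Dock2, 13.03% for Dock8, 40.2% for Was and 27.4% for Coro1a. No paired analysis was possible because the genotypes share no line number. Lane 8 held only WT line 36, and the 2 lines rich in Y-linked counts were both HAT1 WT, so sex and genotype cannot be told apart for them.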
